A study of Arabidopsis thaliana with 8 samples.

Results

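The cytokinin receptors and the type-B response regulators of Arabidopsis were described across shoot regeneration in the wild type and in hag1. The set was fixed by locus identifier and holds 10 of the 25686 loci listed: the receptors AHK2 (AT5G35750), AHK3 (AT1G27320) and AHK4 (AT2G01830), and the regulators ARR1 (AT3G16857), ARR2 (AT4G16110), ARR10 (AT4G31920), ARR11 (AT1G67710), ARR12 (AT2G25180), ARR14 (AT2G01760) and ARR18 (AT5G58080). All were read in at least 1 library, and 9 were read in all 8 and passed the filter on low counts. ARR18 had 0 to 10 reads per library and was not tested.

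The groups were roots of Col (Columbia-0, wild type) and of hag1, and root explants of both genotypes after 4 days on callus-inducing medium (CIM), after a further 2 days on shoot-inducing medium (SIM), and after 2 weeks on SIM. Every explant group had the 4 days on CIM first. The mutant is named for HAG1, the histone acetyltransferase gene also known as GCN5, and the labels do not name its allele. Each genotype gave 1 library of total RNA at each of the 4 stages, so no group had a replicate, and nothing in the labels says whether any libraries came from separate cultures. Tests over stages or over genotypes therefore measure the spread between these 8 libraries.

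Cytokinin binds AHK2, AHK3 and AHK4, histidine kinases of the endoplasmic reticulum and plasma membrane, which pass a phosphoryl group through AHP proteins to the type-B regulators. Type-B regulators are DNA-binding activators, and among their direct targets are the type-A response regulators, which damp the pathway. In tissue culture, the ratio of cytokinin to auxin sets whether explants form roots or shoots, and type-B regulators activate WUS, the regulator of the shoot stem cell niche. ARR1, ARR10 and ARR12 carry much of the cytokinin response in roots and shoots, and KMD F-box proteins target type-B regulators for degradation.

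The libraries held 7.0e+06 to 7.5e+06 unique reads. HAG1 had 156 to 340 reads in the 4 Col libraries and 8 to 21 in the 4 hag1 libraries. Levels are given as counts per 1e+06 TMM-scaled reads (CPM), and 3 reads, the limit that a count of 0 allows, correspond to 0.398 to 0.431 CPM on unscaled library totals. Root hair markers summed to 339 CPM in Col roots and 223 in hag1 roots. In bulk RNA, fewer cells of a type and less RNA per cell cannot be told apart.

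AHK4 lies on chromosome 2 from 362983 to 369707 (TAIR10, reverse strand) and is the only member with 3 transcript models, which differ at their 5′ ends. In RefSeq's annotation of TAIR10.1, whose nuclear chromosomes have the same sequence versions as TAIR10, model 3 starts with 2 noncoding exons of 49 and 75 bases, at 369659 to 369707 and 369450 to 369524. Model 2 starts in an exon at 367955 to 368357, of which 62 bases are coding, and model 1 in a noncoding exon at 367554 to 367977. Models 1 and 3 encode 1057 codons and model 2 encodes 1080. The 250 bases upstream of the starts of models 3 and 2 are shown because the 2 starts gave different reads in the libraries below; the second window lies in an intron of model 3. The windows of ARR2 and ARR11 are shown because these 2 regulators fell against roots both on CIM and after 2 weeks on SIM. All are RefSeq sequence of TAIR10.1, 5′ to 3′ on the strand of the gene, with the type-B core motif AGATT, or AATCT where it lies on the other strand, in capitals. They are placed by RefSeq's starts. These match the deposited starts for AHK4 model 3 and ARR2, and lie 275 bases upstream of the deposited start for AHK4 model 2 and 73 for ARR11.
AHK4 upstream of model 3, chr2:369708-369957: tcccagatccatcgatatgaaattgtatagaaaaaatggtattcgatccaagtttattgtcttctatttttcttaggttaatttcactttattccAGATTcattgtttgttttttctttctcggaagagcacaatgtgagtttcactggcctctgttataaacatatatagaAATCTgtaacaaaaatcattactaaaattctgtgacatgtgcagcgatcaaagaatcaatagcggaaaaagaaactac
AHK4 upstream of model 2, chr2:368358-368607: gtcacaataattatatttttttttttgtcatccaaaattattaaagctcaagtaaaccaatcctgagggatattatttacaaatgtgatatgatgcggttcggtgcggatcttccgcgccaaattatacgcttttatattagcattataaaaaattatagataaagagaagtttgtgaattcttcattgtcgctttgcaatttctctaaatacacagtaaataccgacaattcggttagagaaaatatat
ARR2, chr4:9112436-9112685: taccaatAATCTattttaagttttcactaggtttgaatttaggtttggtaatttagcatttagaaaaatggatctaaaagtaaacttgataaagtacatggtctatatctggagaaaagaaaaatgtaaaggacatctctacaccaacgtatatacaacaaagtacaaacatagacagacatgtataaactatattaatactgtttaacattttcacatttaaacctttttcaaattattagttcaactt
ARR11, chr1:25379218-25379467: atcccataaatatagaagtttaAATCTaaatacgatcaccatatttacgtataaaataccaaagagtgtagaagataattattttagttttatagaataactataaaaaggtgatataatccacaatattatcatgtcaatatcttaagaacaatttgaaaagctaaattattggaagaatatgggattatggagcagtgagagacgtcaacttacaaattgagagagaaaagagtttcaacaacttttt

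AGATT was found 2 times upstream of AHK4 model 3, on both strands, and not upstream of model 2. It occurred once each upstream of ARR2 and ARR11, on the strand opposite the gene. On either strand it was present in 63.7% of the 27443 windows of 250 bases upstream of genes, so its presence is common. The longer type-B motif AGATACG, present in 1.69% of windows, was in none of the 4. Both motifs begin with AGAT, and neither contains the other. Motif matches are descriptions of letters and say nothing of binding.

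AHK4, the receptor also named CRE1 and WOL, which patterns the root vasculature, was higher in hag1 than in Col at all 4 stages by the reads counted. In Col it was at 3.28 CPM in roots, 4.50 on CIM, 2.95 after 2 days on SIM and 6.81 after 2 weeks. In hag1 it was at 9.40, 10.75, 14.67 and 10.37 CPM in the same order. The genotypes did not overlap, and AHK4 was the only member of which this was true. Of all tested genes, 1.60% had every hag1 library above every Col library. The hag1 to Col ratio on the log2 scale was 1.52 in roots (95% interval 0.81 to 2.29), 1.26 on CIM (0.67 to 1.88), 2.31 after 2 days on SIM (1.66 to 3.02) and 0.61 after 2 weeks (0.05 to 1.18). These exact Clopper-Pearson intervals cover counting error only. Over stages the log2 difference was 1.41 (SE 0.31), which did not pass the edgeR quasi-likelihood test after Benjamini-Hochberg adjustment (adjusted p = 0.101), and which the DESeq2 Wald test called (adjusted p = 0.0144).

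The AHK4 values rest on 22 to 105 reads per library, and the reads of a model covered at most 4.73% of it. The models of loci with several models had a median coverage of 6.34 to 6.53% per library, against 82.1 to 86.6% for other loci, so reads shared by models appear not to be counted. If so, the level of AHK4 is too low, and its reads come only from stretches in which the models differ. A shift between models could then change the summed reads while the total stayed level. All ratios and tests of AHK4 refer to the counted reads, and a difference in its total transcript was not tested. Along the 4 stages in order, Col libraries held 19, 8, 12 and 8 reads of model 1, and hag1 libraries 32, 10, 19 and 12. Its hag1 to Col log2 ratios were 0.66, 0.40, 0.85 and 0.59, and all 4 intervals included 0. For model 2 the Col libraries held 2, 9, 11 and 36 reads, and the hag1 libraries 33, 17, 36 and 44. Its intervals lay above 0 in roots (3.96, 1.99 to 7.06) and after 2 days on SIM (1.89, 0.89 to 3.02). For model 3 the reads were 1, 18, 1 and 2 (Col) and 2, 52, 50 and 14 (hag1). Its intervals lay above 0 at each explant stage, with 1.61 on CIM (0.82 to 2.47), 5.83 after 2 days on SIM (3.28 to 11.16) and 2.81 after 2 weeks (0.69 to 5.99).

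The model with most reads differed between stages. In Col roots model 1 held 86.4% of the AHK4 reads (exact binomial interval 65.1 to 97.1), against 47.8% in hag1 roots (35.4 to 60.3). On CIM model 3 led in both genotypes, with 51.4% in Col (34.0 to 68.6) and 65.8% in hag1 (54.3 to 76.1). After 2 days on SIM model 3 held 4.17% in Col (0.11 to 21.1) and 47.6% in hag1 (37.8 to 57.6). Model 2 led after 2 weeks on SIM, with 78.3% in Col (63.6 to 89.1) and 62.9% in hag1 (50.5 to 74.1). These shares were not tested. They are shares of counted reads, not scaled for the length by which each model can be told apart, and so are not shares of transcripts.

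**Figure D1:**
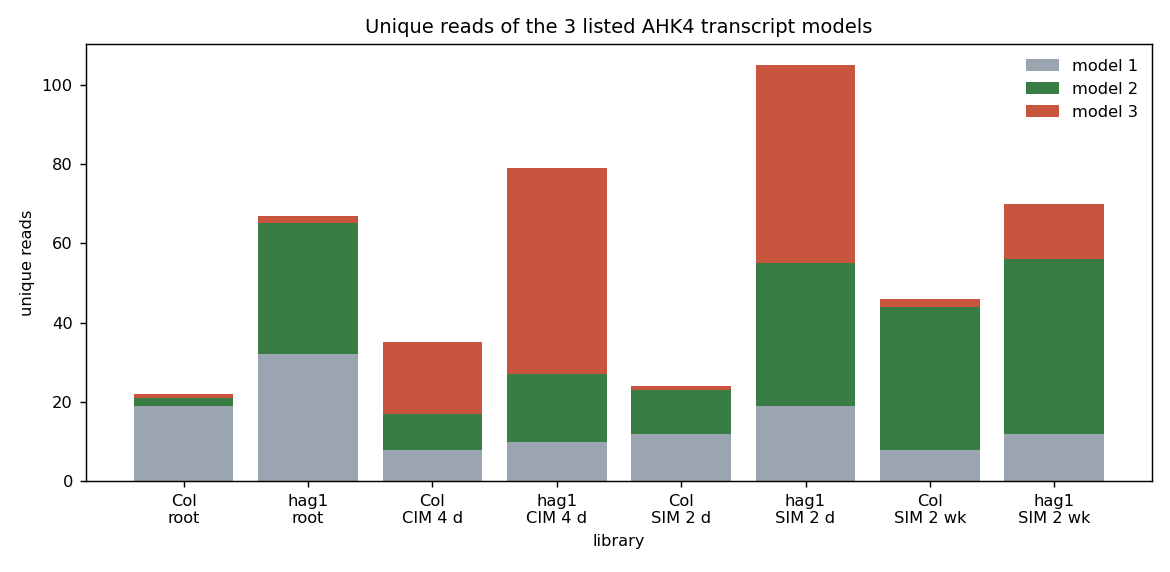
Stacked bars of the unique reads of the 3 AHK4 transcript models in each of the 8 libraries, by stage, for Col and hag1. Model 3 has 18 and 52 reads on CIM in Col and hag1, and 1 and 50 reads after 2 days on SIM.

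AHK2, a receptor with overlapping roles in shoot growth and leaf longevity, was level between the genotypes in roots within counting error and lower in hag1 at every explant stage. It lies on chromosome 5 from 13911371 to 13916337, on the reverse strand (TAIR10, as all positions below). Col had 57.26 CPM in roots, 31.99 on CIM, 39.89 after 2 days on SIM and 46.03 after 2 weeks, and hag1 had 57.69, 18.78, 15.23 and 16.29. Every hag1 explant library was below every Col explant library, as for 8.11% of all genes tested. The log2 ratio was 0.01 in roots (-0.19 to 0.22), -0.77 on CIM (-1.08 to -0.46), -1.39 after 2 days on SIM (-1.72 to -1.07) and -1.50 after 2 weeks (-1.83 to -1.18). The difference between explants and roots in the hag1 effect was -1.25 (SE 0.39), with an unadjusted p of 0.0266 and an edgeR adjusted p of 0.603. None of the 9 tested members passed that test of the difference by edgeR, DESeq2 or limma, and AHK2 was the 1 member with an unadjusted p under 0.05. Of all 18710 genes tested 0% passed it by edgeR, and 1551 (8.29%) had an unadjusted p under 0.05.

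AHK3, the receptor that delays leaf senescence, varied least of the receptors over the 8 libraries. It lies on chromosome 1 from 9487780 to 9492572, forward strand. Col had 206.99 CPM in roots, 153.15 on CIM, 135.06 after 2 days on SIM and 169.03 after 2 weeks, and hag1 had 239.31, 134.17, 128.24 and 156.51. Both root libraries were above all 6 explant libraries. Its genotype difference was -0.03 (SE 0.12; edgeR adjusted p = 0.899), and its ratios within a stage ran from -0.19 to 0.21.

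**Figure D2:**
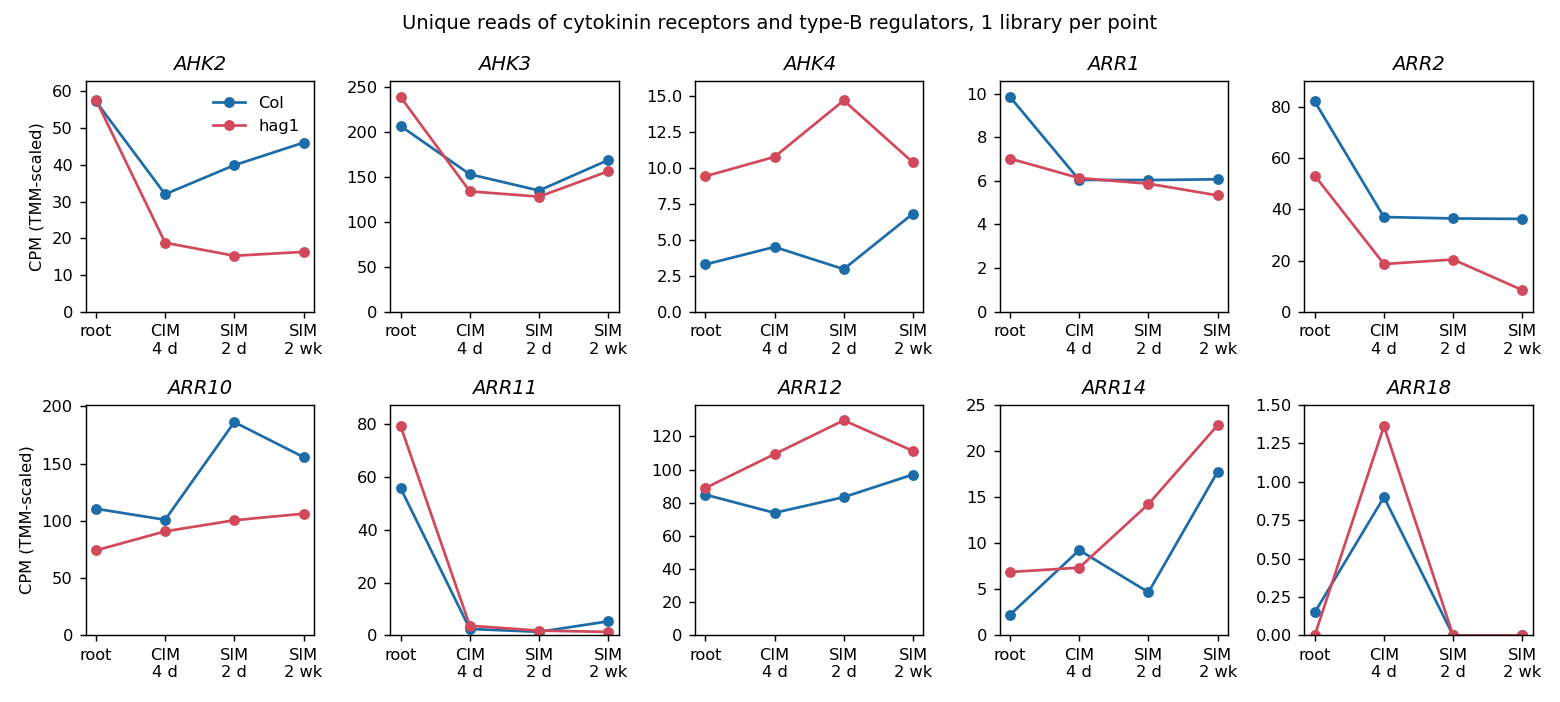
Levels of the 10 members in TMM-scaled CPM by stage, on linear axes that start at 0 and differ between panels, with 1 point per library and lines joining the stages of Col (blue) and of hag1 (red). AHK4 has all hag1 points above all Col points, and ARR11 drops from 55.77 and 79.30 CPM in roots to at most 5.33 in explants.

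Among the type-B regulators, ARR10 and ARR12 had the highest medians per transcript length. The medians over the 8 libraries were 51.2 and 46.9 reads per kilobase of the longest model, on the CPM scale, next to 43.5 for AHK3, and the ranges of these 3 genes overlapped (36.7 to 92.0, 37.3 to 65.5 and 36.0 to 67.2). ARR2 followed with 13.6 (3.17 to 30.8), below every value of AHK3. AHK2 was at 9.21 (3.90 to 14.8), ARR14 at 5.91 (1.59 to 16.2) and ARR11 at 1.49 (0.65 to 38.7), and neighbours in this order overlapped. The median of ARR11 is set by explants: in roots it was at 27.2 in Col and 38.7 in hag1, and in hag1 roots it was above ARR10 (36.7) and ARR2 (19.95). ARR1, at 2.27 (2.00 to 3.69), and AHK4, at 2.22 (0.81 to 4.01), have several models and are probably set too low, so their places in the order are uncertain. ARR18 had a median of 0, and its highest level was 0.72.

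ARR11 (chromosome 1, 25376751 to 25379144, reverse strand) fell most of all tested members when roots were put on CIM. It was at 55.77 CPM in Col roots and 79.30 in hag1 roots, at 2.44 and 3.67 on CIM, and at 1.35 and 1.82 after 2 days on SIM. By the ratio of the 2 libraries, the fall on CIM was 22.8-fold in Col and 21.6-fold in hag1. The change shared by genotypes was -4.44 (SE 0.63; edgeR adjusted p = 0.00639). After 2 weeks on SIM Col was at 5.33 CPM and hag1 at 1.33, a log2 ratio of -2.00 (-3.24 to -0.92) from 36 and 9 reads. The fall from roots to 2 weeks was 10.5-fold in Col and 59.5-fold in hag1, with a shared change of -4.32 (SE 0.64; edgeR adjusted p = 0.00972).

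ARR2 (chromosome 4, 9112686 to 9116164, forward strand), an activator with a role in leaf longevity and in defence as well as in cytokinin response, fell on CIM and was lower in hag1 at all 4 stages. Col had 82.17 CPM in roots, then 37.00, 36.44 and 36.26, so its explants differed little among themselves. In hag1 it had 53.20 in roots, 18.64 on CIM, 20.40 after 2 days on SIM and 8.44 after 2 weeks. The fall on CIM was -1.33 (SE 0.37; edgeR adjusted p = 0.0420), and from roots to 2 weeks on SIM -1.81 (SE 0.38; edgeR adjusted p = 0.0219). The hag1 to Col log2 ratio was -0.63 in roots, -0.99 on CIM, -0.84 after 2 days on SIM and -2.10 after 2 weeks (-2.55 to -1.68). Over stages it was -1.10 (SE 0.26), which edgeR did not call (adjusted p = 0.115) and DESeq2 called (adjusted p = 0.0102).

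ARR14 (chromosome 2, 332967 to 334696, forward strand) was the 1 member called as risen from roots to 2 weeks on SIM. Col had 2.24 CPM in roots, 9.25 on CIM, 4.68 after 2 days on SIM and 17.76 after 2 weeks, and hag1 had 6.88, 7.35, 14.25 and 22.80. Both genotypes ended highest, 7.94-fold above roots in Col and 3.32-fold in hag1, and the shared change was 2.28 (SE 0.55; edgeR adjusted p = 0.0314). The step onto CIM was 2.05 on the log2 scale in Col (1.23 to 2.96) and 0.10 in hag1 (-0.49 to 0.68), and the difference between these steps was not tested. ARR14 rests on 15 to 154 reads and shares 98 bases with AT2G01770 on the other strand; whether the counting used strand is not given in the sources used here.

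ARR10 and ARR12, close partners of ARR1 in cytokinin response, did not pass any stage test, and ARR10 was lower and ARR12 higher in hag1. They lie on the reverse strands of chromosome 4 (15444117 to 15446959) and chromosome 2 (10724301 to 10726961). ARR10 had 110.65, 100.98, 186.28 and 155.71 CPM along the stages in Col and 74.25, 90.90, 100.58 and 106.32 in hag1, and was lower in hag1 at all 4 stages. Its step from CIM to 2 days on SIM was 0.88 in Col (0.76 to 1.01) and 0.15 in hag1 (-0.01 to 0.30), a difference that was not tested. ARR12 had 84.85, 73.87, 83.35 and 96.95 CPM in Col and 88.85, 109.27, 129.64 and 111.20 in hag1, and was higher in hag1 on CIM and at both times on SIM. In roots its ratio of 0.07 was within counting error (-0.10 to 0.23). Neither genotype difference passed the edgeR test, with -0.53 (SE 0.15; adjusted p = 0.135) for ARR10 and 0.38 (SE 0.14; adjusted p = 0.209) for ARR12.

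ARR1 (chromosome 3, 5755821 to 5759443, forward strand) had 36 to 66 reads per library, split over 2 models, and shares 69 bases with AT3G16860 on the other strand. Its level was 9.84 CPM in Col roots and 7.02 in hag1 roots, and 5.33 to 6.12 in the 6 explant libraries. All 4 within-stage intervals included 0, and the genotype difference was -0.17 (SE 0.20; edgeR adjusted p = 0.669). ARR18 (chromosome 5, 23501785 to 23504143, reverse strand) was read 7 times in the Col and 10 times in the hag1 library of CIM, once in Col roots and 0 times in the other 5 libraries, which allows up to 3 reads in each of those.

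Counted over the 9 tested members, the step from roots to CIM had 3 calls, all falls (AHK3, -0.62, SE 0.17, edgeR adjusted p = 0.0375; ARR2; ARR11). Of all 18710 genes tested, 29.7% were called at that step, 12.7% rose and 17.0% fell. An unadjusted p under 0.05 was found there for 4 members and 43.8% of all genes. AHK2 was at -1.28 (SE 0.40; edgeR adjusted p = 0.0572), at -0.57 without hag1 roots (0.237) and at -1.83 without Col roots (0.0290). No member passed from CIM to 2 days on SIM, where 0.0695% of all genes did. None had a call by DESeq2 or limma there, or an unadjusted p under 0.05, which 10.6% of all genes had. No member passed from 2 days to 2 weeks on SIM by any of these tools either, although 11.4% of all genes were called by edgeR. Again none had an unadjusted p under 0.05, beside 30.8% of all genes. From roots to 2 weeks on SIM 1 of 9 was called as risen (ARR14) and 2 as fallen (ARR2 and ARR11). Of all genes 26.8% were called, 11.9% risen and 14.9% fallen. The unadjusted p was under 0.05 for 6 members and 42.4% of all genes.

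AHK2, AHK3, ARR1, ARR2 and ARR11 had both root libraries above all 6 explant libraries, as had 19.3% of all genes tested. For ARR1 the gap was within counting error in hag1, with 50 reads in roots and 45 on CIM (log2 change -0.20, -0.81 to 0.41). All 4 root hair markers fell on CIM, to a summed 0.26 CPM in Col and 0.14 in hag1, where RSL4 had no reads in either genotype, EXPA7 none in Col, and PRP3 and COBL9 none in hag1. Of the endodermis markers 2 of 3 fell, from 636 and 248 CPM to 2.18 and 0.95, and 5 of 6 tested vessel and sieve markers fell, from a summed 727 and 511 CPM to 109 and 45.7. The marker not called was SUC2, at 122 and 171 CPM in roots and 51.6 and 118 on CIM. Their part in the falls of AHK3, ARR2 and ARR11 was not tested. All 5 leaf markers rose from roots (162 CPM summed in Col and 112 in hag1) to 2 weeks on SIM (683 and 391), and their part in the rise of ARR14 was not tested.

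The calls other than those of ARR11 were lost when single libraries were left out, mostly with a fold of similar size. Without hag1 roots, ARR2 was at -0.97 on CIM (edgeR adjusted p = 0.180) and AHK3 at -0.43 (edgeR adjusted p = 0.113). The call of AHK3 on CIM was lost without any 1 library other than Col roots (log2 change -0.72 to -0.43, edgeR adjusted p 0.0641 to 0.230). The call of ARR2 on CIM was lost without either root library, either CIM library or either library of 2 days on SIM (-1.66 to -0.97, edgeR adjusted p 0.0597 to 0.187). Its call after 2 weeks was lost without Col roots (-2.19), hag1 roots (-1.48) or hag1 after 2 weeks (-1.24), with edgeR adjusted p from 0.0561 to 0.0834. The call of ARR14 was lost without either root library or either library of 2 weeks on SIM (1.78 to 2.93, edgeR adjusted p 0.0687 to 0.149). ARR11 kept both calls without each library in turn, with edgeR adjusted p from 0.00113 to 0.0434 on CIM and from 0.00899 to 0.0411 after 2 weeks.

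Between genotypes, 0 of the 9 members passed edgeR over stages, where 0.433% of all genes did; 5 had an unadjusted p under 0.05 (AHK2, AHK4, ARR2, ARR10 and ARR12), as had 20.6% of all genes. DESeq2 called 2, AHK4 as risen and ARR2 as fallen, beside 6.56% of all genes called, 1.89% risen and 4.68% fallen. By limma 0 members were called. Of all 18710 genes it called 0 as risen and 2 as fallen on log2(RPKM + 1), and 11 and 3 on log2(RPKM + 0.1). Within a stage, members with at least 50 reads in either library were counted past 2-fold, with no test. In roots 1 of 8, AHK4, was past it and higher in hag1, beside 12.3% of all such genes past it and 4.13% higher. On CIM 1 of 7, AHK4 again, was higher, beside 12.6% past and 4.87% higher. After 2 days on SIM AHK4 and ARR14 were higher and AHK2 lower, 3 of 7, beside 15.1% past, 5.45% higher and 9.66% lower. After 2 weeks AHK2 and ARR2 were lower, 2 of 7, beside 14.1% past and 11.5% lower. The median ratio of the members was 0.04, -0.19, -0.07 and -0.11 along the stages, against -0.08, -0.00, -0.01 and 0.05 for all genes.

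**Figure D3:**
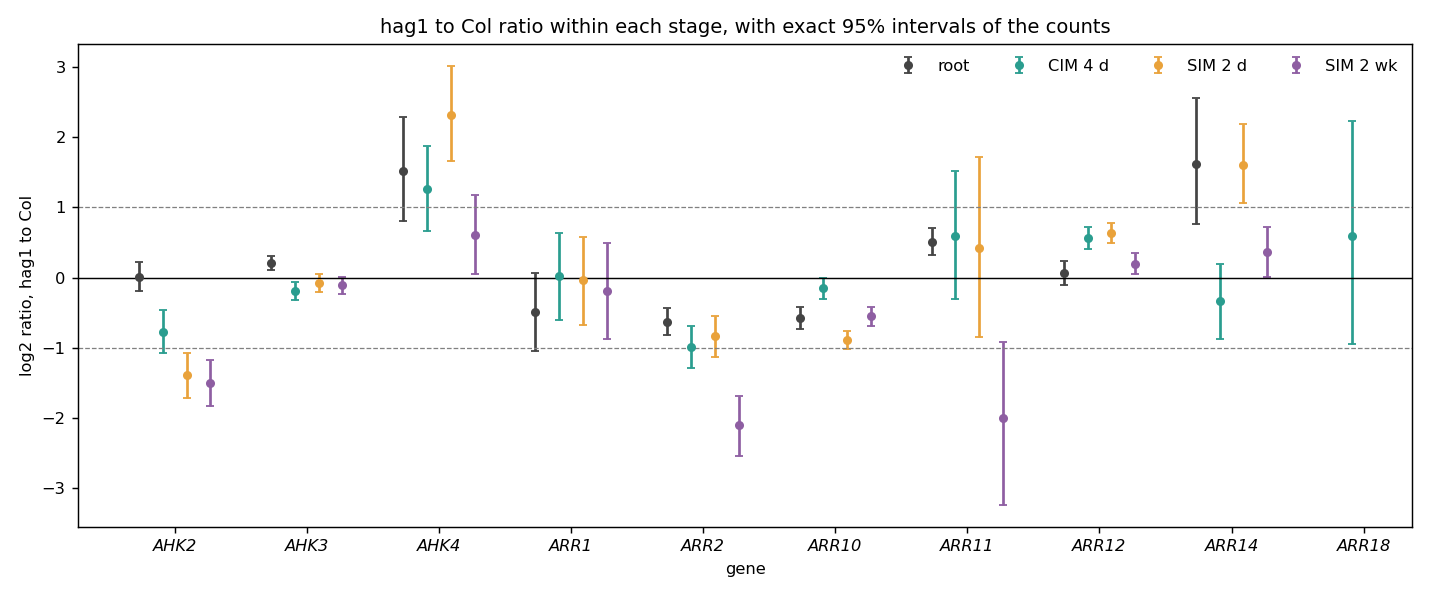
Ratio of hag1 to Col on the log2 scale for each member at each stage, from TMM-scaled reads, with exact 95% intervals that cover counting error only and dashed lines at a 2-fold difference. AHK4 lies above 0 at all 4 stages, from 0.61 to 2.31, and ARR2 below 0, from -0.63 to -2.10.

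Markers also differed between genotypes at single stages. Callus markers summed to 201 CPM in Col and 24.0 in hag1 after 2 days on SIM, while 5 vessel markers (IRX1, IRX3, IRX5, XCP1 and XCP2) summed to 81.4 and 33.9 there and to 52.4 and 12.4 after 2 weeks. The sieve marker SUC2 went the other way after 2 days, with 118 CPM in Col and 336 in hag1, and was at 473 and 174 after 2 weeks. Shoot meristem markers summed to more in hag1, with 29.2 CPM in Col and 48.2 in hag1 after 2 days and 15.2 and 35.1 after 2 weeks. Of these, CUC1 was lower in hag1 after 2 days (35 reads in Col and 11 in hag1) and STM after 2 weeks (29 and 15). The endodermis markers summed to less in hag1 at every stage, with 636 and 248 CPM in roots and 60.1 and 8.59 after 2 weeks on SIM. Their member ESB1 was not lower after 2 weeks, with 10 reads in Col and 12 in hag1. No marker list had a member called for genotype by edgeR, and their part in the hag1 to Col ratios of AHK2, AHK4, ARR2 and ARR11 was not tested.

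The other lists of the pathway had calls in both directions at the step onto CIM. Of 9 tested type-A regulators 4 rose and 0 fell, where 12.7% of all genes rose and 17.0% fell. Among the 4 were ARR15 (log2 change 3.03, SE 0.50, edgeR adjusted p = 0.00955), ARR7 (1.87, SE 0.18, 0.00252) and ARR4 (1.32, SE 0.17, 0.00523). Of the 7 cytokinin oxidases, which degrade the hormone, 5 rose, with the lowest adjusted p for CKX3 (7.47, SE 0.34, edgeR adjusted p = 7.54e-04), CKX5 (3.23) and CKX6 (3.09), and 1 fell, CKX4 (-3.32), which is named because it was alone. Of 13 tested synthesis genes 1 rose, LOG3, and 7 fell. Among the 7 were the isopentenyltransferase gene IPT5 (-5.29) and the activating genes LOG1 (-6.68) and LOG7 (-3.74). On CIM LOG1 had 1 read in each genotype, and IPT5 had 6 in Col and 3 in hag1. CKX4 had 2 and 1 there. The sizes of the falls of LOG1, IPT5 and CKX4 are therefore uncertain. CRF1 (1.96), CRF3 (1.29) and CRF5 (1.91), of 6 cytokinin response factors, rose. Of 3 tested KMD genes 2 fell, KMD4 (-2.64) and KMD1 (-1.99). The phosphotransfer gene AHP1 fell (-2.06), 1 of 4 tested, and AHK1, a histidine kinase outside the receptors, rose (1.67). The median log2 change of these lists was 1.13 for type-A regulators, 3.09 for oxidases, -3.74 for synthesis genes, 1.32 for response factors and -1.99 for KMD genes, against -0.44 for the members and 0.01 for all genes.

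**Figure D4:**
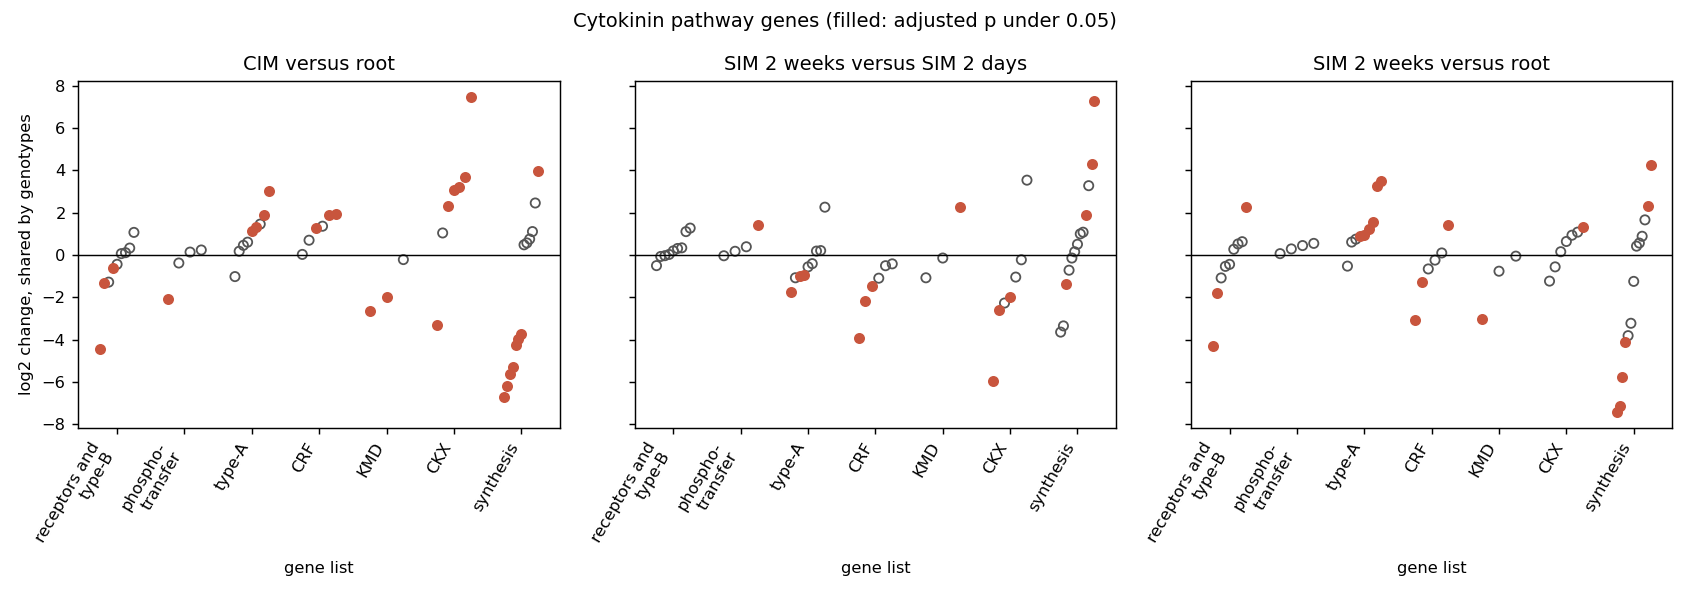
Fitted log2 change of each tested gene of the members and of the other pathway lists, for CIM against roots, for 2 weeks against 2 days on SIM and for 2 weeks on SIM against roots (1 panel each), with filled points for genes called by edgeR. On CIM the oxidases reach 7.47 (CKX3) and the synthesis genes -6.68 (LOG1, with 1 read in each CIM library), and the members lie between -4.44 (ARR11) and 1.07 (ARR14).

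None of these pathway genes passed from CIM to 2 days on SIM. From 2 days to 2 weeks on SIM, where no member passed, genes of several lists fell. Among them were 3 of 9 type-A regulators (ARR7, ARR9 and ARR15), 3 of 6 response factors (CRF2, CRF3 and CRF4) and 3 of 7 oxidases. The oxidases included CKX3 (log2 change -5.96, SE 0.32, edgeR adjusted p = 0.00382). Of all 18710 genes tested, 1326 rose and 807 fell at that step. IPT3 (7.29), CYP735A1 (4.30) and CYP735A2 (1.87), which make and hydroxylate cytokinin, rose, and LOG7 fell (-1.38). After 2 days on SIM IPT3 had 1 read in Col and 5 in hag1, and CYP735A1 had 7 and 2. The sizes of the rises of IPT3 and CYP735A1 are therefore uncertain. AHP1 (1.44) and KMD4 (2.27) rose, and the histidine kinase gene AHK5 (-3.17) fell. Against roots, 6 of 9 type-A regulators were higher after 2 weeks on SIM, among them ARR15 (3.50), ARR4 (1.21) and ARR6 (1.54). In the same comparison 2 of 13 synthesis genes rose and 4 fell, and 1 of 6 response factors rose and 2 fell. Of 7 oxidases 1 rose (CKX3, 1.33), and of 3 KMD genes 1 fell (KMD1, -3.04). Of all genes tested, 11.9% rose and 14.9% fell in that comparison. No pathway list had a gene called for genotype, at an edgeR adjusted p under 0.05.

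Of 2 known type-B targets, WUS was read 0, 0, 1 and 16 times along the stages of Col and 0, 0, 9 and 13 times along those of hag1. Its change from roots to 2 weeks on SIM was not called by edgeR (adjusted p = 0.0627), and no fold is given against roots without reads. IAA3, an auxin response repressor that ARR1 activates in the root, fell from 2 days to 2 weeks on SIM (-2.58, SE 0.27, edgeR adjusted p = 0.00847). The type-B genes ARR13, ARR19, ARR20 and ARR21, the histidine kinase gene CKI1 and KMD3 had no unique reads listed in any library.

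Likeness of profile was measured as the root mean square difference in log2 CPM over the 8 libraries, after centring each gene, among 13543 genes with a mean of at least 5 CPM. For AHK3 the nearest were ACHT1 (0.09), PP2A (0.10) and AT1G49850 (0.10). ARR2 was nearest to AT5G49990 (0.19), BCCP2 (0.26) and AT1G22470 (0.28). The profile of ARR11 was nearest to FLS5 (0.43), AT5G40510 (0.44) and AT3G51330 (0.50), and that of ARR14 to AT3G18280 (0.35), AT1G16790 (0.37) and AT5G45220 (0.38). Among the members themselves AHK3 and ARR1 were closest (0.23), followed by ARR1 and ARR12 (0.41) and AHK2 and ARR2 (0.43), and ARR11 and ARR14 were farthest apart (2.77). These values describe 8 libraries and carry no test.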

How the data were processed

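The 8 libraries came from total RNA, 1 for each genotype and stage. Per the file headers, the deposited files give for each transcript model a count of unique reads, which the authors left unscaled, an RPKM value and the percent of the model covered by reads (coverage). The genome was TAIR10, per the submitters' processing notes; which aligner and counter were used, and whether strand was used, was not given in the sources used here.

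Counts were summed per locus. RefSeq (TAIR10.1) gave gene symbols, and the upstream windows of all 10 members. The 4184 loci with several models held 2.84 to 3.32% of reads. edgeR 4.0.16 (R 4.3.3; TMM, filterByExpr, quasi-likelihood, stage + genotype, 3 residual degrees of freedom, biological coefficient of variation 0.264) tested 18710 genes, with Benjamini-Hochberg adjustment at 0.05. An added term compared the hag1 effect in explants with that in roots. The scripts were tested on simulated data. Alternatives were DESeq2 1.42.0, limma 3.58.1 on log2(RPKM + 1 or 0.1), other scalings and filters, and each library left out.

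Members, lists and tests were chosen with earlier results of these data known. All members were named, and up to 3 called genes per pathway list and comparison, those with the lowest adjusted p, plus WUS and HAG1. CKX4, LOG3, LOG7 on SIM and other single calls were named after their values were seen.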

Additional observations from a re-analysis of the deposited data

Results flagged for a closer look

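On TMM-scaled reads the changes below between stages went opposite ways in Col and hag1, each with an interval that excluded 0 in both genotypes. The interval covers counting error only and not the choice of scaling, and none of these differences was tested. AHK4 moved by 1.20 on the log2 scale from 2 days to 2 weeks on SIM in Col and by -0.50 in hag1. ARR12 moved by -0.20 from roots to CIM in Col and by 0.30 in hag1. From 2 days to 2 weeks on SIM ARR12 moved by 0.22 in Col and by -0.22 in hag1. ARR14 moved by -0.98 from CIM to 2 days on SIM in Col and by 0.96 in hag1.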

How the results depend on the processing

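Of 406 values under alternatives, 352 were labelled the same as in the main analysis. Of the 406, 273 were log2 changes of members, for the 16 effects with an unadjusted p under 0.05 in the main fit. For these, the same label meant that direction and side of the threshold were kept, and 0 reversed. The rest were counts and levels, labelled only same or moved. A count of 4 calls against 3 was still labelled the same. The opposite moves above were not put through the alternatives. The number of members called for genotype went from 0 to 2 with DESeq2 (AHK4 and ARR2). It was also 0 without each library in turn, but those fits called few or none of all genes. That 0 could therefore hardly have differed and says little of the members. For CIM against roots it went from 3 to 1 with total counts and with limma at either pseudocount, and was 1 to 3 without each library in turn. With total counts the median of all genes for that step moved from 0.01 to 0.17 on the log2 scale, and AHK3 was at -0.47 (edgeR adjusted p = 0.129). AHK2 was called on CIM with DESeq2 size factors, with DESeq2 and without Col roots (-1.83), and was at -0.57 without hag1 roots (edgeR adjusted p = 0.237). From 2 days to 2 weeks on SIM the number was 0 to 1 (ARR11, without hag1 after 2 weeks on SIM). From roots to 2 weeks on SIM it was 1 with no genotype term, and 1 to 3 without each library in turn, with 1 left without hag1 roots or hag1 after 2 weeks. It was 0 to 0 from CIM to 2 days on SIM and for explants against roots in the hag1 effect, which could not be fitted without either root library. In these fits too edgeR called few or none of all genes, so the 0 says little of the members. With total counts the split of genes called from 2 days to 2 weeks on SIM changed from 1326 risen and 807 fallen to 864 and 968. Within roots, the number of members past 2-fold went from 1 to 2 at a minimum of 20 reads and to 0 at 100; on CIM it went from 1 to 2 with total counts and to 0 at 100 reads. With only the most-read model, the level of AHK4 went from 2.22 to 0.949 and that of ARR1 from 2.27 to 1.58. The labels carry no replicate numbers, so libraries could be matched by stage only, which the stage term of the main model does. Depth limits AHK4, ARR1, ARR14 and ARR18, and ARR11 in explants (9 to 36 reads). It also limits folds of pathway genes with few reads at a stage, among them ARR15, CKX4, IPT3, IPT5, CYP735A1 and LOG1.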
